A study of Arabidopsis thaliana with 16 samples.

Results

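The comparison set the 2 arrays labelled as pools of cml49 knockout rosettes, in low light (LL) and high light (HL), against the 2 arrays labelled as pools of wild type rosettes in the same lights. These are the 4 arrays titled as pooled samples among the 16 arrays of the series, and they were paired by light level. The plants were Arabidopsis thaliana, cml49 KO and Col-0 wild type (WT), and the sources used here name no allele or line of the knockout. Each pool combined 3 biological replicates, 45 plants in all, so a group of this comparison is a single array. Plants of all groups grew 3 weeks under 80 to 100 µmol photons m-2 s-1, followed by 10 days at 8 µmol (LL). HL plants were moved to 800 µmol before harvest, for 60 min according to the titles and for 10 min according to the treatment protocol. WT arrays of single replicates, with 15 plants each, served as reference for the light effect and the spread between arrays: 3 in LL and replicates 1 and 3 in HL. Replicate 2 of WT in HL was left out, a choice made with earlier results of these data known. The fit therefore used 9 arrays. In whole rosettes, fewer cells of a type and less RNA per cell cannot be told apart.

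CML49 belongs to the calmodulin-like proteins, which bind calcium through EF-hand motifs and are thought to pass calcium signals on to other proteins. A step from dim to bright light is known to set off rapid transcript responses in leaves, among them those of heat shock proteins, photoprotection and light signalling. Iron supply is read in Arabidopsis by a set of basic helix-loop-helix (bHLH) factors, in which FIT acts with BHLH38, BHLH39, BHLH100 or BHLH101 to turn on iron uptake, while PYE and BTS act in a second branch.

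Values are log2 signals of probe sets, made by the authors. Array medians lay between 4.37 and 4.41 in the 9 arrays and probe set signals spanned 0.60 to 14.11. Precision is limited by how few arrays there are. The labelled tissue was checked against marker lists of other organs. Dimmer than the array median on all 9 arrays were 9 of 10 root markers, 11 of 12 flower markers and 12 of 12 seed markers. Among all 28403 probe sets analysed, 12541 were dimmer in this way. Their mean log2 signals ranged over the 4 pools from 2.58 to 2.70 for root, from 2.67 to 2.94 for flower and from 2.43 to 2.59 for seed. The 12 guard cell markers averaged 5.21 and 5.23 in the cml49 pools, against 5.22 and 5.31 in the WT pools.

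CML49 itself (AT3G10300, chromosome 3, 3186314 to 3188205, plus strand, on an assembly not given in the sources used here) went against the labels. Its log2 signal was 3.97 in LL and 4.23 in HL in the cml49 pools, against 2.77 in LL and 3.3 in HL in the WT pools. In the WT single replicates it was 4.44, 4.37 and 4.31 in LL, and 4.32, 4.14 and 4.54 in HL, replicate 2 included. Both pools labelled WT thus lay below every other array, and the sap3 knockout arrays, which the comparison does not use, spanned 4.16 to 4.53. The probe set has 23 probes, and the sources used here do not say which part of the gene the knockout disrupts. The cml49 minus WT difference was 1.07 ± 0.171 (SE; limma adjusted p = 0.3765), with a 95% interval from 0.68 to 1.45. WT pools minus WT single replicates gave -1.38 ± 0.144 (adjusted p = 0.0193), and cml49 pools minus WT single replicates gave -0.32 ± 0.144 (adjusted p = 0.7026). With the pools labelled WT left out, the CML49 difference turned to -0.31 (adjusted p = 0.6999). All directions below are therefore between labels.

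**Figure D1:**
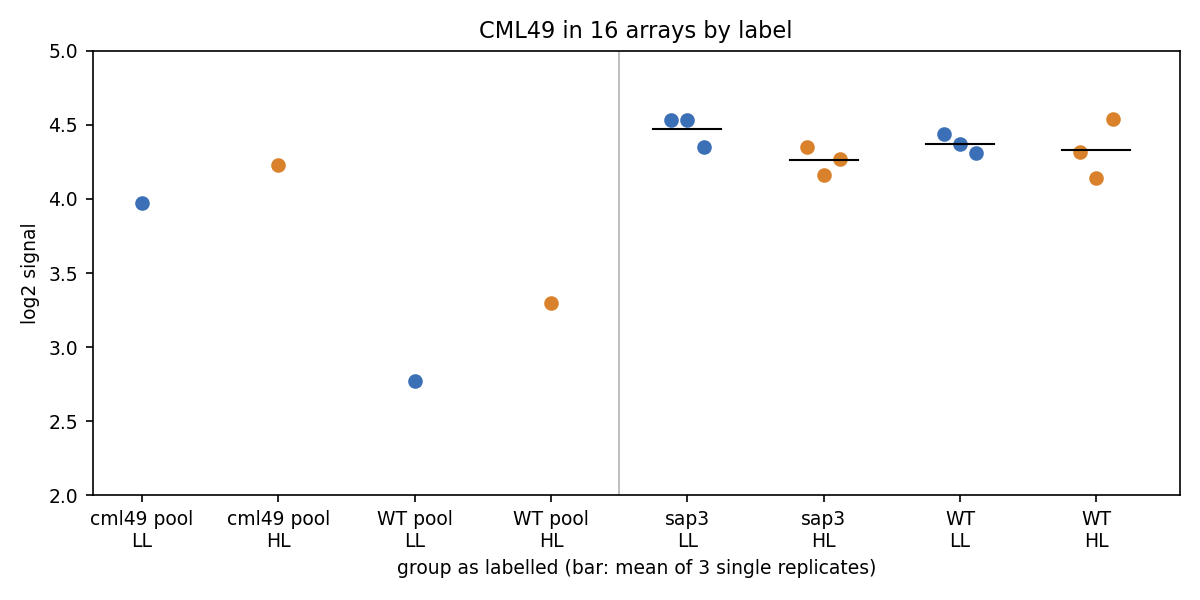
Log2 signal of CML49 in the 16 arrays, by group as labelled (blue, LL; orange, HL; points, arrays; bars, mean of 3 single replicates). The pools labelled WT, at 2.77 and 3.3, lie below all other arrays, whose lowest value is 3.97.

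The authors' deposited table of group means sorts the pools differently from the labels. In the authors' deposited table, the wild type mean in LL equals the average of the pool labelled cml49 in LL and WT_LL replicates 1 to 3 in every probe set, within 0.00452. The wild type mean in HL of the authors' deposited table equals the average of the pool labelled cml49 in HL and WT_HL replicates 1 to 3, within 0.00468. The means that the authors' deposited table names after the SAP3 knockout equal averages of 3 sap3 arrays and the pool labelled WT of the same light, within 0.00458 in LL and 0.00472 in HL. SAP3 (AT2G27580), whose knockout is the other mutant of the series, had a log2 signal of 4.76 in LL and 6.01 in HL in the cml49 pools, against 4.90 and 6.43 in the WT pools. The WT single replicates had 4.85, 4.84 and 5.14 in LL and 6.14, 3.94 and 6.48 in HL, replicate 2 included. The sap3 arrays had 4.21, 6.98 and 4.05 in LL and 5.06, 5.28 and 3.74 in HL.

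Between the labels, no probe set passed an adjusted p under 0.05: 0 of 28403 were called (0%) by limma. At an unadjusted p under 0.05 there were 776 higher (2.73%) and 850 lower (2.99%), 1626 together (5.72%). The smallest adjusted p belonged to MRD1 (AT1G53480, chromosome 1, 19963047 to 19964712), annotated as a protein whose transcript responds in the mto1 mutant. MRD1 had 4.31 and 4.70 in the cml49 pools, against 2.83 and 2.46 in the WT pools (LL, then HL), and 5.06, 4.87 and 4.99 in the WT single replicates in LL and 4.68 and 4.79 in HL. The pools labelled WT were low and did not overlap with the other arrays of the fit. The difference was 1.86 ± 0.195 (adjusted p = 0.0632), and it passed the threshold with a mean-dependent prior (0.0339) and with 1 probe set per locus (0.0421). With the WT pools left out it was -0.37 (adjusted p = 0.7029).

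Among the other members of the 10 smallest p-values, the iron factor BHLH38 (AT3G56970) had 2.37 and 2.27 in the cml49 pools, against 3.70 and 4.19 in the WT pools, and 2.23 to 2.72 in the 5 WT single replicates. Its difference was -1.625 ± 0.208 (adjusted p = 0.1862). BHLH38 lay within the single replicate range in the cml49 pools and above it in the WT pools. MAF5 (AT5G65080), a MADS-box factor of the family that represses flowering, had 1.79 and 1.82 in the cml49 pools, against 3.82 and 3.48 in the WT pools, with single replicates between 1.83 and 2.75. Here the single replicates lay between the labels (-1.845 ± 0.274, adjusted p = 0.3145). The defensin-like AT1G13609 had 5.33 and 4.95 in the cml49 pools, against 6.30 and 6.15 in the WT pools, and 4.77 to 5.13 in single replicates. GRP4 (AT3G23830), a glycine-rich RNA-binding protein, had 5.06 and 5.32 in the cml49 pools, against 4.41 and 4.22 in the WT pools, and 5.03 to 5.29 in single replicates. The legume lectin-like AT3G16530 had 2.97 and 3.52 in the cml49 pools, against 4.29 and 4.56 in the WT pools, and 2.76 to 3.40 in single replicates. In 10 of these 10 probe sets the mean of the WT single replicates lay nearer the cml49 pool in both lights, against 24.8% of all probe sets, and in 0 of them nearer the WT pool in both lights, against 22.7% of all. MRD1 and the genes of this paragraph were chosen after their values were seen, and the single replicates enter the spread that ranked them. A small p in this fit favours probe sets whose offset from the single replicates is alike in both lights. The shares of all probe sets are therefore not a like background. All 10 probe sets, CML49 among them, were read on the same 4 pools.

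**Figure D2:**
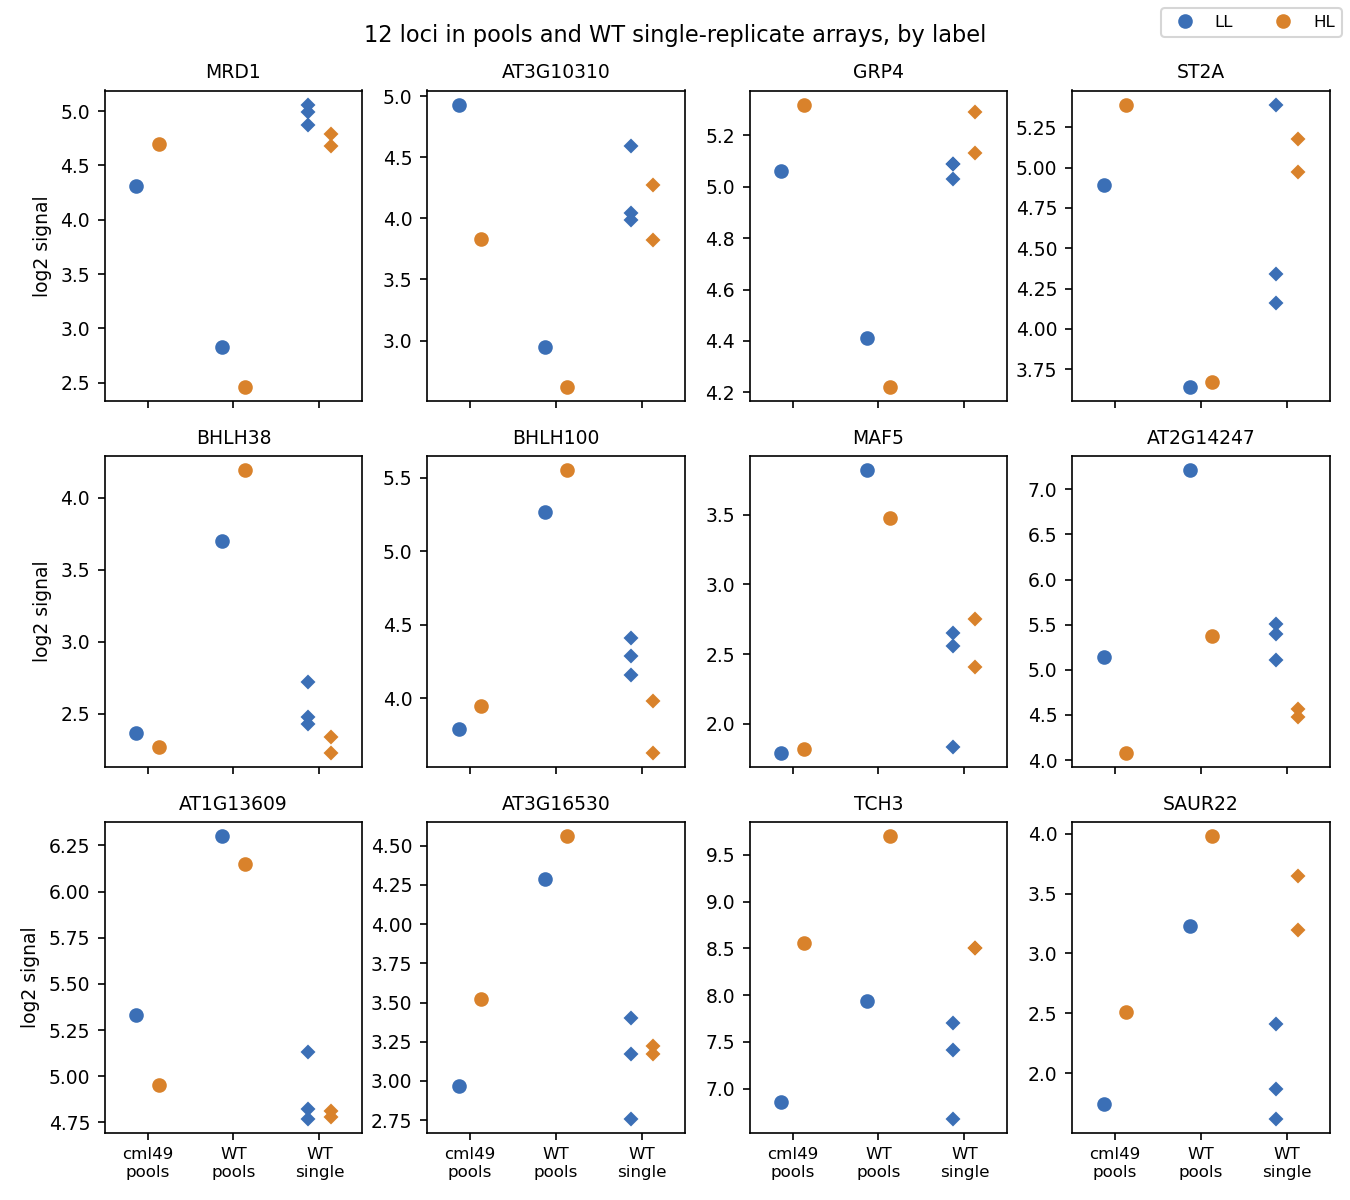
Log2 signals of 12 loci, each panel with its own scale, in the cml49 pools (left), the WT pools (middle) and the 5 WT single-replicate arrays (right); blue is LL and orange HL. MRD1 and AT3G10310 are low in the WT pools (2.46 to 2.95), and BHLH38 and BHLH100 are high there (3.70 to 5.55).

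A difference of at least 1, which is a doubling of the signal, was found in the same direction in both lights for 15 probe sets higher (0.0528%) and 12 lower (0.0422%) in the cml49 pools, 27 in all. The same count between WT single replicates 1 and 3, in LL and in HL, gave 15 higher and 5 lower, 20 in all. Of the 15 higher probe sets, 9 are copies with identical values on every array of the fit (3.63 and 3.76 in the cml49 pools, 2.51 and 2.56 in the WT pools), so that 7 distinct patterns remain. The authors' annotation gives these 9 as pseudogene entries described as pre-tRNA and marks them as cross-hybridising. The 20 between single replicates were not reduced for copies, and a pool combines 3 replicates where a single array does not. Whether replicate numbers pair arrays across the lights is not settled. Only 5 of the 27 had a mean over the pools at or above the median of 4.405.

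The 4 loci with a single annotation and such a mean were all lower in the cml49 pools. AT2G14247, a locus of unknown function, had 5.14 and 4.08 in the cml49 pools, against 7.21 and 5.38 in the WT pools, and 5.11 to 5.51 in LL and 4.48 to 4.57 in HL in single replicates (-1.685 ± 0.251, adjusted p = 0.3145). The iron factor BHLH100 (AT2G41240) had 3.79 and 3.95 in the cml49 pools, against 5.27 and 5.55 in the WT pools, and 3.63 to 4.41 in single replicates (-1.54 ± 0.233, adjusted p = 0.3145). For both loci the WT pools lay above every single replicate of the same light. TCH3, a touch-induced calmodulin-like protein, had 6.86 and 8.56 in the cml49 pools, against 7.94 and 9.70 in the WT pools, with 6.68 to 7.70 in LL and 8.50 in both HL single replicates (-1.11 ± 0.293, adjusted p = 0.8247). AT1G47395 had 4.87 and 6.13 in the cml49 pools, against 5.96 and 7.22 in the WT pools (-1.09 ± 0.218, adjusted p = 0.7204). Dimmer loci of the same count, named after their values were seen, include SAUR22 (auxin-responsive family), GRXS13 (a glutaredoxin) and PP2-B11 (a phloem protein) among the lower, and ST2A (a sulfotransferase) and AT5G02340 (a C1 domain protein) among the higher. ST2A had 4.89 and 5.39 in the cml49 pools, against 3.64 and 3.67 in the WT pools, and single replicates from 4.16 to 5.39 overlapped the cml49 pools. PP2-B11 had 3.03 and 2.92 in the cml49 pools, against 4.09 and 4.01 in the WT pools, and 3.40 to 4.12 in single replicates. AT5G02340 had 3.66 and 2.90 in the cml49 pools, against 2.32 and 1.62 in the WT pools, and 1.38 to 2.29 in single replicates. For PP2-B11 and AT5G02340 the cml49 pools were the arrays outside all WT arrays of the fit.

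**Figure D3:**
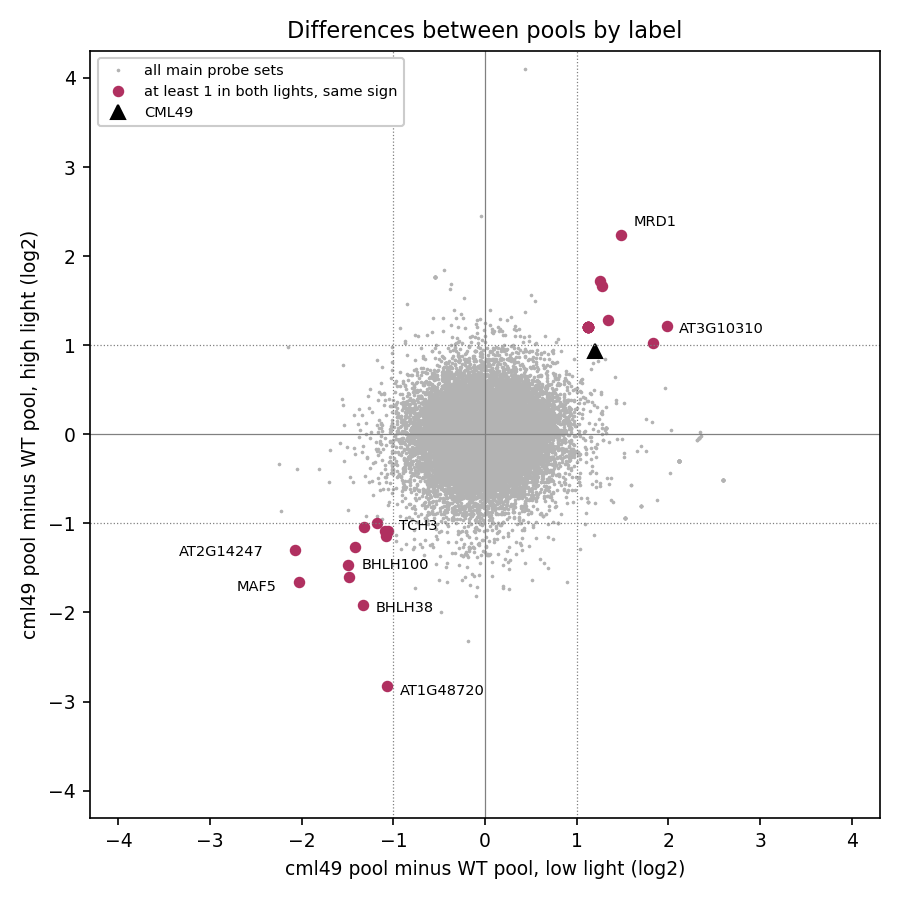
Difference of log2 signal, cml49 pool minus WT pool, in LL (horizontal axis) and HL (vertical axis) for 28403 probe sets; dotted lines mark 1 and -1. The 27 probe sets at least 1 apart with the same sign in both lights are in red, 9 of them on a single point, and CML49 is the black triangle at 1.2 and 0.93.

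The locus next to CML49 on chromosome 3, AT3G10310 (3190001 to 3195005, plus strand), was among the 15 higher. It encodes a kinesin-like motor protein with a calponin homology domain. Its log2 signal was 4.93 and 3.83 in the cml49 pools, against 2.95 and 2.62 in the WT pools, and 3.76 to 4.62 in the 12 single-replicate arrays of WT and sap3. Like CML49, it was lowest in the pools labelled WT (1.595 ± 0.285, adjusted p = 0.7204). Of the 17 measured loci among the 10 on each side of CML49, 0 were called, 6 were higher and 3 lower in both lights at any size, against 25.3% and 24.1% of all probe sets, and the median difference was 0.01. AT3G10310 alone of these 17 reached 1 in either light.

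How far arrays of the same genotype label differ was measured by the term for array kind. WT pools minus WT single replicates called 5 probe sets (0.0176%), 3 higher (0.0106%) and 2 lower (0.00704%), and 2547 had an unadjusted p under 0.05 (8.97%). The 2 lower were CML49 and MRD1 (-2.22 ± 0.164, adjusted p = 0.00226), and the 3 higher were AT1G13609 (1.38 ± 0.141, adjusted p = 0.0193), AT1G76960 (1.42 ± 0.153, adjusted p = 0.0198) and BHLH38 (1.51 ± 0.174, adjusted p = 0.0300). Leaving out single replicates in turn gave 1 to 5 calls, with 1 call without WT_LL replicate 1 or without WT_HL replicate 3, and 2 without WT_HL replicate 1 or WT_LL replicate 2. With WT_HL replicate 2 put back there were 0 calls. The same contrast for the cml49 pools, added after seeing the data, called 0 probe sets (0%) and left 2026 with an unadjusted p under 0.05 (7.13%). Whether the number of calls differs between the labels was not tested, and pooling cannot be told apart from genotype in the cml49 contrast.

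In LL, 214 probe sets were higher (0.753%) and 156 lower (0.549%) by at least 1 in the cml49 pool than in the WT pool. Those that also lay outside all WT arrays of that light numbered 178 (0.627%) and 124 (0.437%). Single replicates of WT in LL, set against each other in pairs, differed that much in 335, 358 and 367 probe sets, against 370 for the pools. The standard deviation of the difference over all probe sets was 0.361 for the pools and 0.335 to 0.348 for the single replicates. The cml49 against WT counts in LL thus stood near those between replicates of one label. The 214 higher probe sets held 143 distinct patterns of values, since groups of up to 23 share identical values, and 92 were marked as cross-hybridising.

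By the rule for LL alone (outside all WT values in LL, under 0.5 in HL), the largest higher loci were AT2G31141, RFC3, WHY1, AT3G44050 and AT2G25350. RFC3, annotated as a ribosomal protein of the S6 and EF1B type, had 7.53 in the cml49 pool, against 6.10 in the WT pool, with 6.55 to 6.88 in single replicates. WHY1, a single-stranded DNA-binding regulator, had 6.2 in the cml49 pool, against 4.83 in the WT pool, with 5.30 to 5.67 in single replicates. For RFC3 and WHY1 alike, the cml49 pool lay above and the WT pool below the single replicates. The largest lower loci were AT5G03090, AT4G36850, PR5, AT1G53970 and AT4G23870. PR5, a pathogenesis-related protein, had 5.19 in the cml49 pool, against 6.56 in the WT pool, with 5.31 to 5.64 in single replicates, so that the WT pool was the more distant array.

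In HL, 110 probe sets were higher (0.387%) and 195 lower (0.687%) by at least 1 in the cml49 pool, 305 in all, against 243 between WT_HL replicates 1 and 3. As in LL, pools and single replicates are not like arrays in this count. Outside all WT arrays in HL were 85 (0.299%) and 93 (0.327%). Single replicate means in HL lay nearer the cml49 pool for 81 of the 110 and 160 of the 195, against 54.7% of all probe sets. In LL the corresponding counts were 107 of 214 and 76 of 156, against 45.2% of all.

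The largest higher loci in HL alone were AT5G22920, XTH25, AT3G56200, AT1G21245 and RABG3B. AT5G22920, a RING and CHY zinc finger protein, had 4.51 in the cml49 pool, against 2.82 in the WT pool, and 4.1 and 4.0 in single replicates. RABG3B, a Rab7-type GTPase, had 5.82 in the cml49 pool, against 4.65 in the WT pool, and 5.31 and 5.51 in single replicates. For both, the WT pool lay below the single replicates and the cml49 pool above them, with the WT pool the more distant. The largest lower loci were UGT73B5, RLP34, PIP2B, ABCB14 and AT1G30250. PIP2B, a water channel of the plasma membrane, had 7.28 in the cml49 pool, against 8.65 in the WT pool, and 7.31 and 7.53 in single replicates. UGT73B5, a glucosyltransferase, had 4.53 in the cml49 pool, against 6.24 in the WT pool, and 5.12 and 4.95 in single replicates. For PIP2B and UGT73B5, the WT pool lay above the single replicates and the cml49 pool below them, with the WT pool the more distant.

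The response to light was compared by the interaction, the HL minus LL change in the cml49 pools minus that in the WT arrays. By limma 0 of 28403 were called (0%), and the lowest adjusted p was 0.8499. Without adjustment, 1651 had a p under 0.05 (5.81%). FIT, the central factor of iron uptake, was among the 5 lower loci with the smallest p: 4.79 in LL and 3.29 in HL in the cml49 pools, against 4.4 and 4.53 in the WT pools, and 3.5 to 3.82 in the single replicates (interaction -1.58 ± 0.258, adjusted p = 0.8499). Its values in the single replicates were flat across light. HLL, a mitochondrial ribosomal protein needed for ovule growth, was among the 5 higher: 2.81 and 3.99 in the cml49 pools, against 3.78 and 3.65 in the WT pools (interaction 1.36 ± 0.250, adjusted p = 0.8499). Only 3 loci were at least 1 apart in both lights with opposite signs (0.0106%). The other loci named for the interaction were AT1G21530, AT3G11060, AT2G35384 and AT2G31018 among the higher and AT3G28956, AT3G46140, ROL5 and AT5G20000 among the lower.

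The gene lists were chosen with earlier results of these data known, and 0 members of any list were called in the genotype difference or in the interaction. All members of a list were read on the same pools, so they do not count as independent of each other. Several lists also differ in brightness from the probe sets as a whole. The shares of all probe sets given here and below are therefore not a like background for a list. Of the 16 iron genes, 6 were lower at an unadjusted p under 0.05 (all probe sets, 2.99%) and 0 higher (2.73%), and 9 were lower in both lights (24.1%) against 1 higher (25.3%). The median difference was -0.36, against 0.005 over all probe sets. The 6 were BHLH38, BHLH100, BHLH101, BHLH39, the ferric chelate reductase FRO3 and the ubiquitin ligase BTS. BTS had 8.64 and 8.59 in the cml49 pools, against 9.20 and 9.27 in the WT pools, and 8.68 to 8.86 in single replicates (-0.62 ± 0.142, adjusted p = 0.7204). Of the uptake genes, the iron transporter IRT1 had a difference of -0.115 ± 0.171 and the root-type reductase FRO2 of 0.135 ± 0.312. The mean log2 signal over the 16 genes was 5.40 and 5.36 in the cml49 pools, against 5.71 and 5.92 in the WT pools, and 5.34 to 5.36 in the 5 single replicates. The WT pools were the arrays that stood apart.

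**Figure D4:**
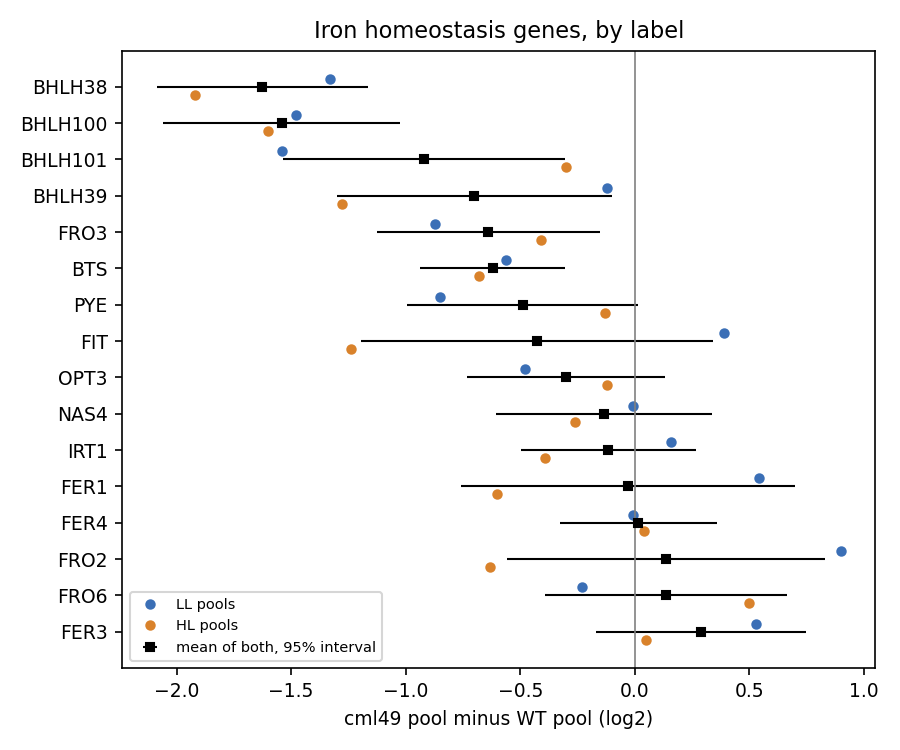
Difference of log2 signal, cml49 pool minus WT pool, for 16 iron homeostasis genes in LL (blue) and HL (orange), with the mean of both and its 95% interval (black squares and lines, limma). Regulators of the bHLH group lie lowest, down to -1.625 for BHLH38, and the ferritin FER3 is highest at 0.29.

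Among the photosynthesis lists, 14 of the 18 light-harvesting antenna genes were lower in both lights (77.8%, against 24.1% of all probe sets) and 0 were higher (25.3% of all), with medians of -0.32 in LL and -0.10 in HL. The median interaction was 0.12 with 0 called, and 1 antenna gene was lower at an unadjusted p under 0.05. Of the 18 antenna genes, 3 were dimmer than the array median on all arrays of the fit, against 12541 of all 28403 probe sets. They were read on the same pools, so their shared direction does not count as 14 independent results. LHCB1.2, read by a probe set marked as cross-hybridising, had 10.27 and 9.92 in the cml49 pools, against 10.88 and 10.31 in the WT pools. Its single replicates had 10.03 to 10.51 in LL and 9.87 to 9.89 in HL (-0.50 ± 0.180, limma adjusted p = 0.8511). The antenna mean was 9.21 in the cml49 pool in LL, against 9.49 in the WT pool, with single replicates from 8.99 to 9.21. The cml49 pool lay at the top of the single replicates and the WT pool above them. Of the 22 photosystem subunits, 17 were lower (77.3%) and 1 higher in both lights, with a median of -0.15 and 0 at an unadjusted p under 0.05. An example is PSAG, with 10.02 and 10.06 in the cml49 pools, against 10.67 and 10.19 in the WT pools. The Calvin-Benson list of 17 had 10 lower (58.8%) and 2 higher, with a median of -0.10, which is no lower than that of the antioxidant list (-0.12) or the shade growth list (-0.143). The plastid ribosomal proteins had 15 of 37 lower (40.5%) and 6 higher, with a median of -0.025.

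Of the 20 salicylate and defence genes, 14 were lower in both lights (70.0%, against 24.1% of all probe sets) and 1 higher (5.0%, against 25.3%), with a median of -0.32. At an unadjusted p under 0.05, 4 were lower (2.99% of all probe sets). Their mean was 4.41 and 4.44 in the cml49 pools, against 4.77 and 4.73 in the WT pools, and 4.45 to 4.67 in LL and 4.32 and 4.42 in HL in single replicates. The WT pools lay above the single replicates in both lights, while the cml49 pools lay just below the lowest of them in LL and just above the highest in HL. SARD1, a regulator of salicylate synthesis, had 6.07 and 5.04 in the cml49 pools, against 6.73 and 5.87 in the WT pools, and 5.42 to 6.15 in LL and 4.61 to 4.83 in HL in single replicates (-0.745 ± 0.239, adjusted p = 0.8257). Its direction turned to 0.24 with the WT pools left out. PR1, the classic marker of salicylate signalling, had 1.77 and 2.04 in the cml49 pools, against 2.41 and 2.98 in the WT pools (-0.79 ± 0.283, adjusted p = 0.8511). Its single replicates had 2.23 to 2.59 in LL and 1.74 and 1.99 in HL, and all these values were below the array medians. In LL the WT pool lay among the single replicates and the cml49 pool below them. Of the 23 abscisic acid and cold genes, 12 were lower in both lights (52.2%) and 0 higher, and 3 were lower at an unadjusted p under 0.05, with medians of -0.12 in LL and -0.41 in HL. GOLS2, which makes the stress sugar galactinol, had 5.54 and 7.87 in the cml49 pools, against 5.97 and 8.67 in the WT pools, and 5.17 to 5.48 in LL and 7.50 and 7.75 in HL in single replicates (-0.615 ± 0.178, adjusted p = 0.8247). Both pools of each light lay above its single replicates, and the direction turned to 0.228 with the WT pools left out.

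Heat shock genes had medians on opposite sides of 0 in the lights. The interaction, which also takes in the WT single replicates, had a median of -0.02 and was called for 0 of them. The median over 29 genes was 0.07 in LL and -0.31 in HL, and 4 were lower at an unadjusted p under 0.05 (2.99% of all probe sets). Their mean was 6.03 in the cml49 pool in HL, against 6.38 in the WT pool, with 5.95 and 6.09 in single replicates. HSFA7A, a heat stress transcription factor, had 2.63 and 4.15 in the cml49 pools, against 3.20 and 5.41 in the WT pools (-0.915 ± 0.295, adjusted p = 0.8335). The small heat shock protein HSP17.6II had 4.84 in HL in the cml49 pool, against 6.43 in the WT pool, with 5.24 and 5.84 in single replicates, which lay between the pools.

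Of the 29 calmodulin and calmodulin-like genes, 10 were lower in both lights (34.5%, against 24.1% of all probe sets). In the other direction 7 were higher (24.1%, against 25.3% of all), and the median was -0.11. At an unadjusted p under 0.05, TCH3 was the 1 lower gene (all probe sets, 2.99%) and CML41 the 1 higher (2.73%). CML41 had 3.16 and 3.01 in the cml49 pools, against 2.47 and 2.63 in the WT pools (0.535 ± 0.181, adjusted p = 0.8511). CML50, close in number to CML49, had 6.89 and 7.20 in the cml49 pools, against 7.13 and 7.18 in the WT pools. The 27 calcium kinases, channels and pumps had 9 lower (33.3%, against 24.1% of all probe sets) and 8 higher (29.6%, against 25.3%) in both lights. Among them CPK4, a calcium-dependent kinase, had the smallest p (5.55 and 5.98 in the cml49 pools, against 5.99 and 6.85 in the WT pools; -0.655 ± 0.267, adjusted p = 0.8511).

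Of the 21 clock genes, 9 were higher in both lights (42.9%, against 25.3% of all probe sets) and 2 lower (9.52%, against 24.1%), with a median of 0.07. Of the 18 light signalling genes, 7 were higher (38.9%) and 2 lower (11.1%), with a median of 0.105. In both lists 0 genes had an unadjusted p under 0.05. PRR5, a clock repressor, had 10.56 and 10.14 in the cml49 pools, against 10.48 and 9.42 in the WT pools (0.40 ± 0.202, adjusted p = 0.8726). Among the 212 cytosolic ribosomal proteins, 34.9% were higher and 17.9% lower in both lights, against 25.3% and 24.1% of all probe sets, with a median of 0.042. Sugar starvation genes had opposite medians by light, -0.43 in LL and 0.42 in HL over 13 genes, with a median interaction of 0.22 and 0 called. Their mean was 7.92 and 5.44 in the cml49 pools, against 8.35 and 5.21 in the WT pools, and 7.54 to 8.08 in LL and 5.32 and 5.39 in HL in single replicates. The WT pool lay above the single replicates in LL and below them in HL, and the cml49 pool lay among them in LL and just above them in HL. ASN1, an asparagine synthetase induced by low sugar, had 9.10 and 7.85 in the cml49 pools, against 10.24 and 7.87 in the WT pools, and 8.67, 9.66 and 8.75 in the LL single replicates.

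Rapid stress regulators, photoprotection, tetrapyrrole synthesis, antioxidant enzymes, flavonoid synthesis, shade growth, jasmonate, glucosinolates and translation factors had list medians between -0.143 and 0.005. In the antioxidant list, GSTF8, a glutathione transferase, had 5.71 and 7.37 in the cml49 pools, against 6.32 and 8.09 in the WT pools (-0.665 ± 0.157, adjusted p = 0.7204). LOX4, a lipoxygenase of jasmonate synthesis, had 4.27 and 6.04 in the cml49 pools, against 4.70 and 7.53 in the WT pools (-0.96 ± 0.298, adjusted p = 0.8247). PDF1.2, a defensin of the jasmonate response, lay the other way, with 1.49 and 2.31 in the cml49 pools, against 0.98 and 1.47 in the WT pools (0.675 ± 0.236, adjusted p = 0.8511).

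**Figure D5:**
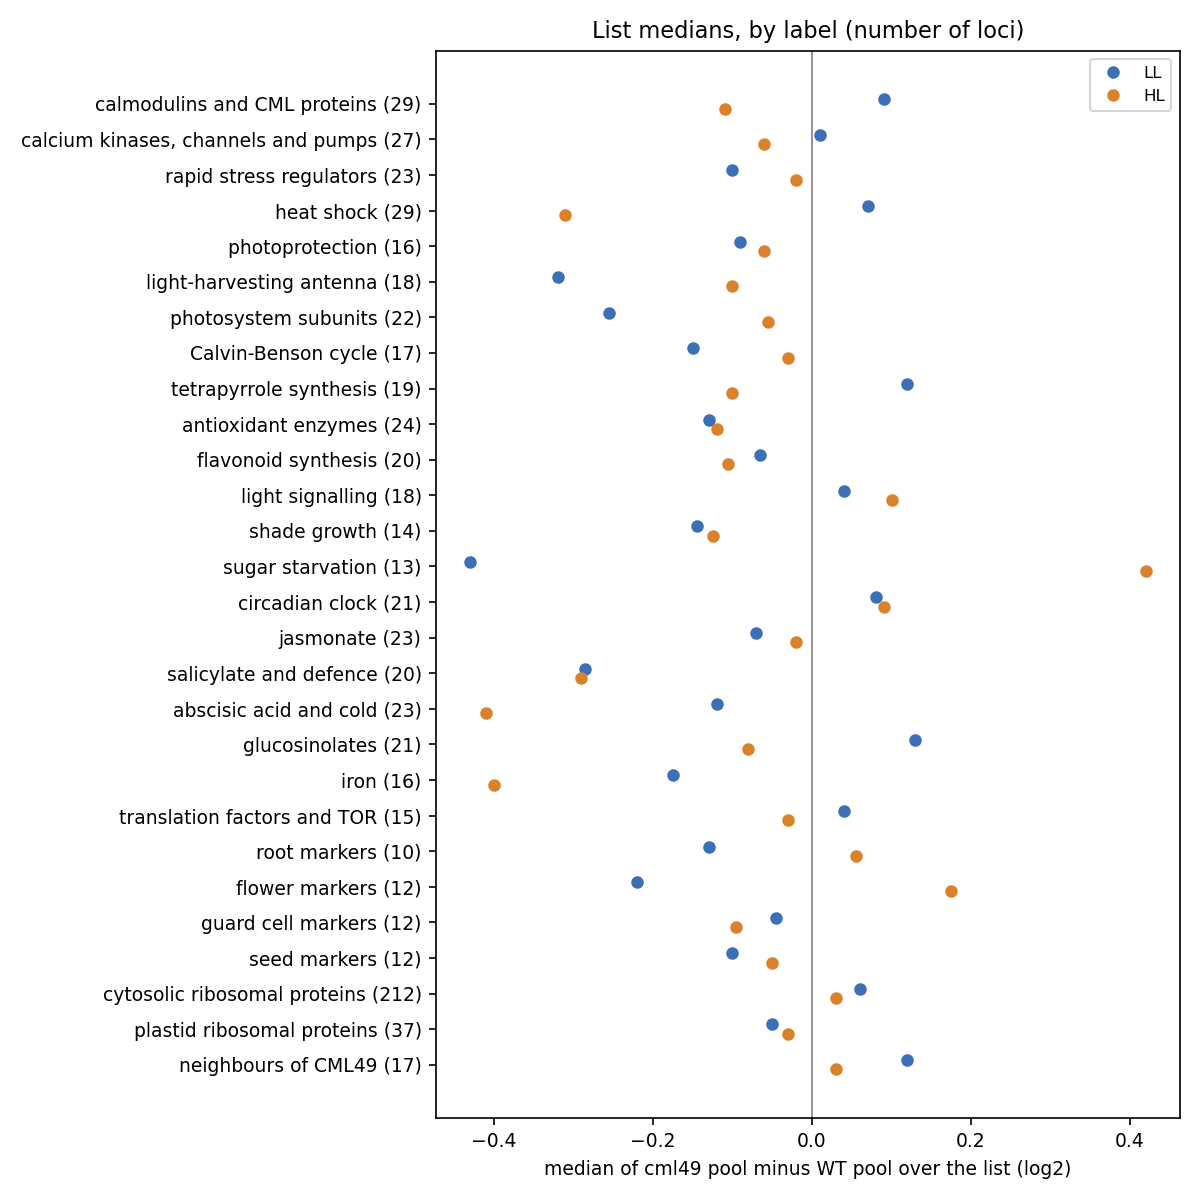
Median difference of log2 signal, cml49 pool minus WT pool, over each gene list in LL (blue) and HL (orange), with the number of measured loci in brackets. Sugar starvation spans -0.43 to 0.42 between the lights. The iron, abscisic acid and cold, and salicylate lists lie below 0 in both, as do several others, among them the antenna, photosystem, antioxidant and shade growth lists.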

How the data were processed

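Members, gene lists and tests were chosen with earlier results of these data known. The authors deposited log2 signals, computed with RMA in Affymetrix Expression Console per the submitters' processing notes; probe set library and genome build are not given in the sources used here. Of 28501 probe sets, 28403 main ones were analysed. The 16 signal columns of the authors' workbook could not be matched to labels and were not used. limma 3.58.1 (R 4.3.3) fitted 9 arrays with light, array kind (pool or single replicate) and genotype, with Benjamini-Hochberg adjustment over all main probe sets. The cml49 minus WT value is the mean of the LL and HL pool differences. The spread comes from differences among single replicates and from how far light changes of the pools depart from a shared light effect. Each lone pool is assumed to share this spread. P-values measure only the spread between these arrays. The fit was tested on simulated data. Loci came from the authors' annotation and the TAIR10.1 RefSeq table; 990 probe sets cross-hybridise.

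Genes were named by rule: CML49; called loci, filled with loci at or above the median signal differing by at least 1 in both lights; 3 smallest p per list; 5 per direction for the interaction and for each light alone. Others are said to be chosen later. Tables and plots used Python 3.11.15.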

Additional observations from a re-analysis of the deposited data

Results flagged for a closer look

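In 3 loci, the cml49 minus WT difference was at least 1 in both lights with opposite signs (0.0106% of probe sets). RLP20, a receptor-like protein, differed by 1.19 in LL and -1.13 in HL (limma interaction adjusted p = 0.8688). RD28, a plasma membrane water channel, differed by 1.04 in LL and -1.29 in HL (0.9217). It had 4.46 and 7.59 in the cml49 pools, against 3.42 and 8.88 in the WT pools, and 3.88 to 4.16 in LL and 7.30 and 7.56 in HL in single replicates. AT5G46510, a disease resistance protein of the TIR-NBS-LRR class, differed by 1.09 in LL and -1.01 in HL (0.8499). None of the 3 was called in the interaction, which sets the light change of the cml49 pools against that of all WT arrays, single replicates included. The interaction was -1.169 for RLP20, -0.864 for RD28 and -1.491 for AT5G46510. Whether the LL and HL differences between the pools differ from each other was not tested on the pools alone.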

How the results depend on the processing

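Each light and genotype has 1 pool, which limits every value here. The genotype difference had 1 call with a mean-dependent prior and 1 with 1 probe set per locus, MRD1 both times; it had 0 in the other alternatives, 10 arrays, the 4 pools alone and each left-out replicate (0 to 0) included. WT pools against WT single replicates gave 0 calls with 10 arrays, 23 with a mean-dependent prior, 16 without dim probe sets and 1 at an adjusted p under 0.01; left-out replicates gave 1 to 5. A replicate block left 0 genotype calls (smallest adjusted p 0.223) and 0 interaction calls (0.12); only single replicates carry shared numbers. Replicate 1 minus 3 correlated at -0.0137 between LL and HL over all probe sets, yet 20 probe sets were at least 1 apart with the same sign in both lights, so whether the numbers pair arrays is not settled. Without dim probe sets, LL counts were 95 higher and 36 lower, HL counts 23 and 74, and both-light counts 1 and 4. At a size of 1.5 they were 75 and 16, 22 and 25, and 0 and 1. With 1 probe set per locus, LL had 131 higher and both lights 6 higher. Without the term for array kind, the CML49 difference was 0.08.

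Directions turned without that term for CML47 (0.056), ATPC1 (0.004), FBA1 (0.026), RBCS3B (0.168), CAT2 (0.006), AG (-0.025), AT1G76960 (0.307), RLP20 (-0.003) and RD28 (0.138). They turned with the pools labelled WT left out, an alternative added after seeing the data, for CML49 (-0.308), MRD1 (-0.368), CML47 (0.324), CPK28 (0.042), CPK6 (0.011), OHP2 (0.056), BCH2 (0.056), LHCA1 (0.010), ATPC1 (0.105), FBA1 (0.114), RBCS3B (0.361), CRD1 (0.056), CAT2 (0.122), HY5 (-0.084), GLK1 (0.029), KMD1 (0.064), ASN1 (0.062), PRR3 (-0.030), SARD1 (0.244), GOLS2 (0.228), P5CS1 (0.171), MYB28 (-0.081), AG (-0.181), PR5 (0.071), AT1G30250 (0.286), AT3G16530 (0.079), AT1G13609 (0.297), AT1G76960 (0.723) and RD28 (0.294). By construction both alternatives move weight from the WT pools to the single replicates; other causes were not tested. The remaining 2137 values of single loci stayed on their side of the threshold with their direction. In most settings the genotype value is by construction the same mean of the LL and HL pool differences. Its direction could not turn there, so this count does not measure how stable the directions are.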

Other observations

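MRD1, the locus with the smallest p between the labels, was also read in the arrays outside the comparison. Its log2 signal was 3.29, 4.56 and 2.96 in sap3 in LL and 3.24, 2.68 and 2.75 in sap3 in HL, and 2.54 in WT_HL replicate 2, which the fit left out. The WT pools, at 2.83 and 2.46, lay within or next to the range of these arrays, and the cml49 pools, at 4.31 and 4.70, lay nearer the WT single replicates of the fit, at 4.68 to 5.06.

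AT3G01345, chosen after its values were seen, had the largest difference in either light. It had 3.6 in LL and 7.97 in HL in the cml49 pools, against 3.17 and 3.87 in the WT pools. WT single replicates had 7.0, 3.9 and 7.01 in LL and 8.04, 2.85 and 8.19 in HL, and the 6 sap3 arrays lay between 2.84 and 4.14. The values fell into a low and a high set that did not follow light. AT1G48720, with 4.25 and 1.45 in the cml49 pools, against 5.32 and 4.28 in the WT pools, spanned 2.06 to 5.27 in the WT single replicates. The 95% interval of its difference of -1.95 ± 1.153 ran from -4.51 to 0.61. Its probe set is marked as cross-hybridising.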
